A study of Mus musculus with 6 samples.

Results

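The mammalian circadian clock was followed here through 10 of its genes in peripheral blood (PB) neutrophils, *Arntl*, *Clock*, *Per1*, *Per2*, *Cry1*, *Cry2*, *Nr1d1*, *Nr1d2*, *Dbp* and *Bhlhe40*, which were taken by name from a table of 29097 mouse genes. All 10 were in the table. Neutrophils (CD45+CD11b+Ly6G+) were sorted from the PB of 8-week-old male C57BL/6 wild type mice that carried silk ligatures on their molars for 14 d (ligature-induced periodontitis, LIP, labelled Lig) or stayed unligated for the same time (Ctrl). Each group had 3 libraries, each made by Smart-seq2, a PCR-amplified full-length cDNA protocol, from the pooled neutrophils of 5 mice, so the spread between libraries is a spread between pools. The hour at which blood was drawn is not given in the sources used here, no series over the day was analysed here, and p-values measure the spread between these pools.

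The clock is a feedback loop of transcription. ARNTL (also called BMAL1) and CLOCK bind E-box sequences as a pair and activate the *Per*, *Cry*, *Nr1d*, *Dbp* and *Bhlhe40* genes, the PER and CRY proteins then block that pair, and the nuclear receptors encoded by *Nr1d1* and *Nr1d2* (REV-ERB alpha and beta) repress *Arntl*. In blood neutrophils the loop is known for driving a daily cycle of maturation, often called ageing, after the cells leave the bone marrow.

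In LIP, the repressor genes *Per1*, *Per2* and *Cry1* and the E-box competitor *Bhlhe40* were higher than in Ctrl, except when libraries were scaled on mature neutrophil genes, where these 4 were lower, and with library totals or limma on FPKM only *Per1* of the 4 passed, whereas the activator *Arntl* and the REV-ERB gene *Nr1d2* were lower under each scaling. *Cry2* and *Dbp* had lower values in all 3 LIP libraries without passing the test. *Clock* and *Nr1d1* were too low to be tested. Of the 10 genes, 8 reached a mean of 1 FPKM (fragments counted, divided by gene length and library total) over the 6 libraries and entered edgeR's quasi-likelihood test, and 6 of these passed a Benjamini-Hochberg adjusted p of 0.05, 4 higher and 2 lower. This is to be read against the whole comparison, in which 53.6% of the 10440 genes tested passed, 26.5% higher and 27.2% lower. Of the 8, *Arntl* and *Nr1d2* passed with a change of at least 2-fold, as did 33.3% of all genes tested. With 8 genes the counts are not read as differing from that background. The libraries of the groups did not overlap for any of the 8 tested genes, against 63.4% of all genes tested. The median of their absolute log2 fold changes was 0.87, and that of all genes tested 0.74.

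The libraries held 53059029, 54358483 and 52301060 counted reads in Ctrl and 56504173, 57262379 and 52186555 in LIP. Their RNA composition differed in a way that bears on each gene below. The 20 mature neutrophil markers listed summed to 17943, 21533 and 20096 FPKM in Ctrl and 59374, 63707 and 58535 in LIP, and all 20 rose. *S100a9*, the most abundant of them, averaged 7101 and 23492 FPKM. The 10 B cell markers summed to 4026, 4359 and 4047 FPKM in Ctrl and 578, 635 and 631 in LIP, led by *Ighm* with means of 1518 and 276. The T cell markers summed to 403, 432 and 380 against 68.7, 73.5 and 61.6, led by *Trbc2*, and the erythroid markers to 180823, 186319 and 187053 against 20220, 19509 and 19551, led by *Hba-a1*. All 10 genes of each of these 3 lists fell, with median log2 fold changes of -2.54, -2.48 and -2.96, and none was at 0 in every library. Summed NK cell markers, led by *Gzma*, averaged 261 and 248 FPKM, monocyte markers, led by *Nr4a1*, 426 and 507, platelet markers, led by *Ppbp*, 915 and 1745, and eosinophil and basophil markers, led by *Siglecf*, 10.5 and 16.0. The part of these other cell types in the clock gene values was not tested, and fewer cells of a type and less RNA per cell cannot be told apart in pooled samples. Nor can a larger share of neutrophils be told apart from more RNA of these markers per neutrophil. This limits the neutrophil markers as a scale for the libraries.

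Levels could be ordered per gene length. In Ctrl, *Bhlhe40* was highest at 34.2 ± 5.01 FPKM (SD, n = 3), followed by *Per1* at 12.7 ± 1.31 and *Cry1* at 8.66 ± 1.062, and these 3 did not overlap one another. *Cry2*, *Arntl*, *Nr1d2*, *Per2* and *Dbp* came next, between 2.42 and 1.51 FPKM, and each overlapped its neighbour in the order. *Clock* stood at 0.980 ± 0.133 and *Nr1d1* at 0.352 ± 0.133. In LIP the first 3 places were the same, with 41.2 ± 1.65 for *Bhlhe40*, 19.8 ± 1.604 for *Per1* and 11.5 ± 2.09 for *Cry1*. *Per2*, which was level with *Nr1d2* and *Arntl* in Ctrl, came directly after *Cry1* in LIP at 3.11 ± 0.428 FPKM and overlapped none of the others. The remaining 6 genes lay between 1.202 and 0.361 FPKM, and each overlapped the next. Only *Bhlhe40*, *Per1* and *Cry1* stood above the middle of the genes tested, with 89.4%, 77.4% and 67.8% of these below them, and *Arntl*, *Nr1d2* and *Dbp* exceeded 10.5%, 8.08% and 2.24%.

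*Arntl* (ENSMUSG00000055116, chromosome 7 from 113207465 to 113314126, GRCm38) encodes the obligatory partner in the activating pair. It measured 20.9, 13.4 and 15.8 CPM in the Ctrl libraries (counts relative to the TMM-scaled library total, the scale of all values that follow unless FPKM is named) and 2.61, 10.3 and 2.69 in the LIP libraries. LIP replicate 2 stood well above the other LIP libraries, and the groups did not overlap. On the log2 scale the difference was -1.68 with a standard error of 0.507 (adjusted p = 0.0172). Without LIP replicate 2 it was -2.66 (adjusted p = 0.000261), and the call was lost without Ctrl replicate 1 (adjusted p = 0.0570) and without LIP replicate 3 (adjusted p = 0.0501). *Clock* (ENSMUSG00000029238, chromosome 5 from 76209868 to 76304792), its partner gene, measured 14.4, 11.3 and 13.5 CPM in Ctrl and 7.14, 9.88 and 5.63 in LIP, so that each LIP library lay below each Ctrl library. Its mean FPKM of 0.718 kept it out of the test. When genes were chosen by edgeR's filterByExpr instead, its log2 fold change was -0.75 (95% interval -1.39 to -0.11, adjusted p = 0.0720). *Npas2* and *Arntl2*, which can stand in for *Clock* and *Arntl*, had no read in any LIP library and a mean below 0.1 CPM in Ctrl.

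**Figure D1:**
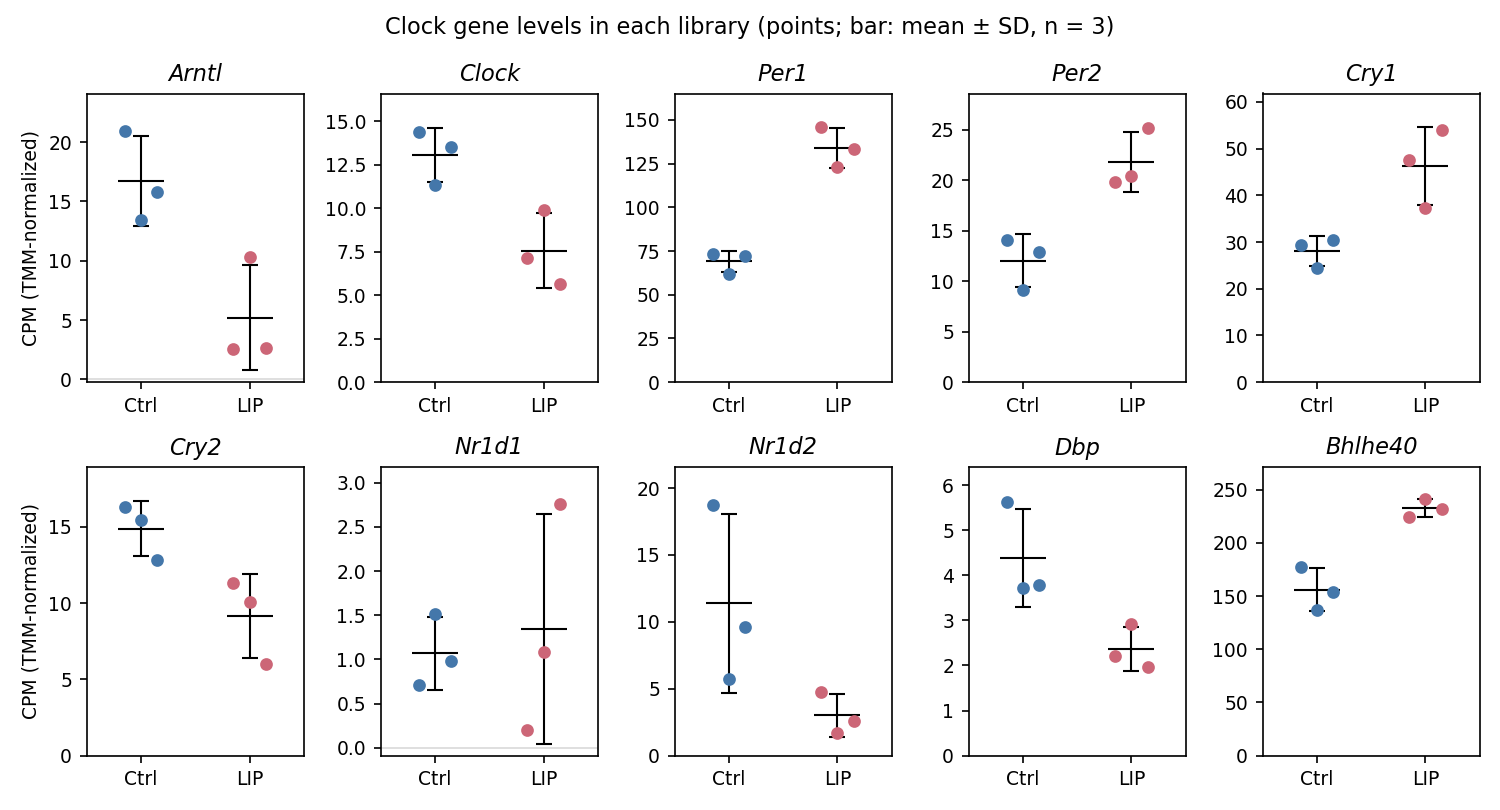
CPM after TMM scaling (vertical axes, each with its own range, a grey line at 0) of the 10 clock genes in the 3 Ctrl (blue) and 3 LIP (red) libraries, drawn from left to right as replicates 1 to 3, with the mean and SD. *Nr1d1* is the gene whose groups overlap; *Arntl* has 1 LIP library at 10.3 CPM beside 2.61 and 2.69.

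*Per1* (ENSMUSG00000020893, chromosome 11 from 69095217 to 69109960), a repressor of the loop that is also induced by glucocorticoids and cAMP, measured 73.3, 61.9 and 71.9 CPM in Ctrl and 146, 123 and 133 in LIP. The libraries of each group lay close together and far from the other group. The mean rose 1.94-fold, or by 0.96 ± 0.125 (SE) in log2 units (adjusted p = 0.000104), and the call held without any 1 library. *Per2* (ENSMUSG00000055866, chromosome 1 from 91415982 to 91459324), its closest relative in the loop, measured 14.1, 9.10 and 12.9 CPM in Ctrl and 19.8, 20.5 and 25.2 in LIP. It rose by 0.86 ± 0.241 (SE) in log2 units (adjusted p = 0.0122), also without any 1 library, but missed the threshold with library totals (adjusted p = 0.0849). *Per2* was thus lower than *Per1* in every library and rose by a similar factor: the log2 ratio of *Per1* to *Per2* FPKM was 2.60 ± 0.202 in Ctrl and 2.68 ± 0.240 in LIP. *Per3* had a mean of 2.40 CPM in Ctrl and 1.67 in LIP and was not tested.

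The cryptochromes, the PER proteins' partners in repression, went apart. *Cry1* (ENSMUSG00000020038, chromosome 10 from 85131700 to 85185064) measured 29.4, 24.5 and 30.3 CPM in Ctrl and 47.6, 37.4 and 54.0 in LIP. *Cry2* (ENSMUSG00000068742, chromosome 2 from 92403646 to 92434043) measured 16.3, 15.4 and 12.8 CPM in Ctrl and 11.3, 10.1 and 6.04 in LIP. Every LIP library was above every Ctrl library for *Cry1* and below every Ctrl library for *Cry2*. *Cry1* rose by 0.72 ± 0.182 (SE) in log2 units (adjusted p = 0.00698), a call that was lost with library totals (adjusted p = 0.0877). For *Cry2* the log2 difference was -0.70 (95% interval -1.34 to -0.06, adjusted p = 0.0633), which missed the threshold but passed in some other settings, among them without LIP replicate 1 (adjusted p = 0.0331). Within a library, the log2 ratio of *Cry1* to *Cry2* FPKM was 1.77, 1.59 and 2.16 in Ctrl and 2.99, 2.81 and 4.09 in LIP, a ratio that no scaling of libraries changes.

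Promoter sequence was at hand for 8 of the 10 genes, as windows from 250 bases before to 50 after a RefSeq transcript start (GRCm38.p6, 12 windows). The 4 windows printed here are those of *Per1* and *Cry1*, which rose and hold an E-box, of *Cry2*, the cryptochrome with lower values, and of *Arntl*, which fell and holds a REV-ERB/ROR element. *Per1* and *Arntl* have 2 windows each, from different transcript starts, and the one shown was chosen because it holds the match. The other window of each holds none of the letters searched, and *Cry1* and *Cry2* have 1 window. Each is written 5′ to 3′ along the gene, and capitals mark the matched letters.
Per1, chr11:69098699-69098998, plus strand: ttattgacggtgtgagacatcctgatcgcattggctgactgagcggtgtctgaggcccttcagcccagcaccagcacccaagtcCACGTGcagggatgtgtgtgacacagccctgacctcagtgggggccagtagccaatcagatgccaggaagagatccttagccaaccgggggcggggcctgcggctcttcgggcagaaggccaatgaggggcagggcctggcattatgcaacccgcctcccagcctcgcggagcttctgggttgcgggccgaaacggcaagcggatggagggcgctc
Cry1, chr10:85185005-85185304, minus strand: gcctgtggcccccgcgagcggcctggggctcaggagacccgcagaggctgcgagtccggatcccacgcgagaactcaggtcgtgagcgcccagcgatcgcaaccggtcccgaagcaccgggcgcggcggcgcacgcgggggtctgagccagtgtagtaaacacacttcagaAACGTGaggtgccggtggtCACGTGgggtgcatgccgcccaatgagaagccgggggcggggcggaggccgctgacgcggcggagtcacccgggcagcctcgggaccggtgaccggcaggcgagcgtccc
Cry2, chr2:92434020-92434319, minus strand: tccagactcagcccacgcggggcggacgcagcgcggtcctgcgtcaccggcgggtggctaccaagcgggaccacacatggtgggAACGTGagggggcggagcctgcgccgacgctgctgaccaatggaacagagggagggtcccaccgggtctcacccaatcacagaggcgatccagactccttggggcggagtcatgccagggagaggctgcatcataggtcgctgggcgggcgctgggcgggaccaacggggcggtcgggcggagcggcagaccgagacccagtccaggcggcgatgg
Arntl, chr7:113207261-113207560, plus strand: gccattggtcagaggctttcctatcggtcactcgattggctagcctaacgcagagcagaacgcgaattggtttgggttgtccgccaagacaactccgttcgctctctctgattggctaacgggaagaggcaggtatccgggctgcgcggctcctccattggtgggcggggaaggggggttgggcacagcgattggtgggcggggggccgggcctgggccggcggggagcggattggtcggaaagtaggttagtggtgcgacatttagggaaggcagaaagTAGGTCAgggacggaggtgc

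The letters searched, on both strands, were CACGTG (the E-box, to which ARNTL and CLOCK bind), CACGTT (the related E′-box), TTATGTAA and TTACGTAA (D-boxes, to which DBP binds) and TAGGTCA (the REV-ERB/ROR element). An E-box stood 166 bases before the transcript start of the *Per1* window shown, which lies inside the span given above for the gene, and 60 before that of *Cry1*, and 7.15% of all 32851 promoter windows hold one. The E′-box was found in *Cry1* at 79 bases and in *Cry2* at 166 bases before the start, where AACGTG is the same site read from the other strand, and also in *Nr1d1*. It occurs in 4.68% of all windows. The element in *Arntl* lay 31 bases after the transcript start of the window shown, which is downstream of the first base given above for the gene, and 2.61% of all windows hold one. No window of the 8 genes held a D-box, and *Clock*, *Nr1d2* and *Dbp* held none of these letters, which says nothing about sites outside the windows. The same letters stood beside other directions among the other clock genes. An E-box was also found in windows of *Ciart*, *Cipc*, *Tef* and *Bhlhe41*, all with lower means in LIP. Of these, *Ciart* and *Cipc* did not pass the test and *Tef* and *Bhlhe41* were under the FPKM filter. A REV-ERB/ROR element was found in *Nfil3*, which rose by 1.57 in log2 units with TMM. These matches are descriptions and not evidence of binding, and a link of motif to direction was not tested.

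*Nr1d2* (ENSMUSG00000021775, chromosome 14 from 18204054 to 18239127) encodes REV-ERB beta, a repressor of *Arntl*. It measured 18.8, 5.74 and 9.65 CPM in Ctrl and 4.78, 1.69 and 2.58 in LIP. The Ctrl libraries spread widely, with replicate 1 far above the others, and the lowest of them was still above the highest LIP library. It differed by -1.92 ± 0.510 (SE) in log2 units (adjusted p = 0.00930), and by -1.34 without Ctrl replicate 1, where the call was lost (adjusted p = 0.0565). *Nr1d1* (ENSMUSG00000020889, chromosome 11 from 98767932 to 98775333), which encodes REV-ERB alpha, was the lowest of the 10 genes. It had 43, 91 and 57 reads in Ctrl and 10, 55 and 130 in LIP, or 0.714, 1.52 and 0.977 against 0.199, 1.08 and 2.75 CPM. The LIP libraries included both the lowest and the highest value, so no direction could be given. With filterByExpr its log2 fold change was 0.37 (95% interval -1.78 to 2.52, adjusted p = 0.806). *Rora*, whose product activates where REV-ERB represses, averaged 6.97 CPM in Ctrl and 9.26 in LIP and was under the FPKM filter.

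*Dbp* (ENSMUSG00000059824, chromosome 7 from 45705088 to 45710203) is an output gene of the loop and encodes an activator at D-boxes. It measured 5.63, 3.72 and 3.79 CPM in Ctrl and 2.21, 2.92 and 1.97 in LIP, without overlap. Its log2 fold change of -0.89 (95% interval -1.73 to -0.04) did not pass (adjusted p = 0.0719). Of its exonic bases, 18.0% also lie in exons of *Sphk2* on the opposite strand, whose mean of 9.44 FPKM was far above the 1.08 of *Dbp*. Use of strand in counting is not given in the sources used here, so reads of the overlap cannot be assigned, and *Sphk2* itself had a log2 fold change of 0.28 (adjusted p = 0.141). *Nfil3*, the repressor that competes with DBP for the same sites, went the other way: it averaged 175 ± 22.6 CPM in Ctrl and 518 ± 21.4 in LIP (SD over 3 libraries) and rose by 1.57 ± 0.114 (SE) in log2 units (adjusted p = 1.88e-06), but not with the neutrophil genes as the scale. The remaining D-box activators, *Tef* and *Hlf*, were under the FPKM filter.

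*Bhlhe40* (ENSMUSG00000030103, chromosome 6 from 108660629 to 108666925) encodes DEC1, which binds E-boxes without activating them and which immune stimuli also induce. It was the most abundant of the 10 genes and measured 177, 137 and 154 CPM in Ctrl and 225, 241 and 232 in LIP. The 3 LIP libraries lay within a narrow band above all Ctrl libraries. It rose 1.49-fold (log2 fold change 0.58, standard error 0.118, adjusted p = 0.00207), which did not pass with library totals (adjusted p = 0.0949). Its relative *Bhlhe41* (DEC2) averaged 8.14 ± 0.659 CPM in Ctrl and 2.98 ± 1.21 in LIP, which is below the FPKM filter. With filterByExpr, where 33.2% of 16402 genes passed, it was lower in LIP (log2 fold change -1.41, adjusted p = 0.0223).

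**Figure D2:**
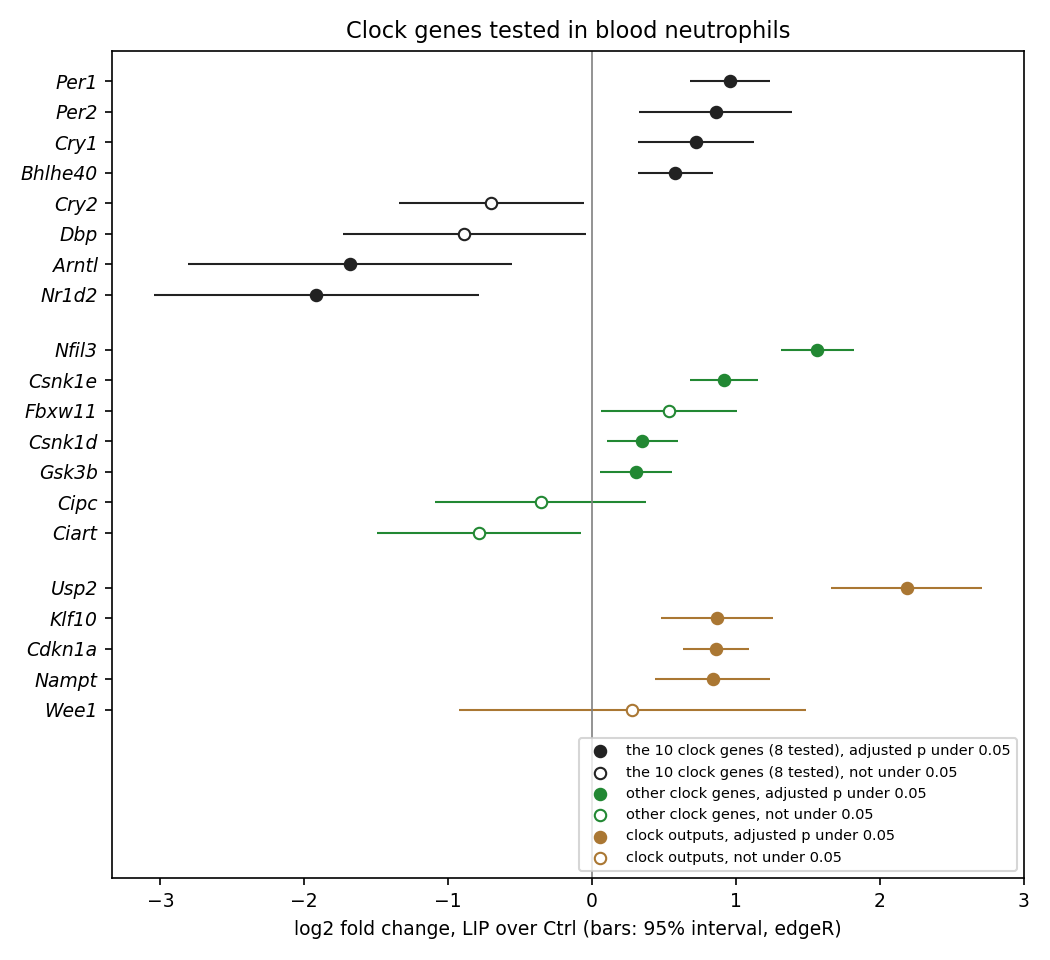
Log2 fold changes of LIP over Ctrl (horizontal axis, with 95% intervals from edgeR) of clock genes and clock outputs tested; filled points have an adjusted p under 0.05. *Per1*, *Per2*, *Cry1* and *Bhlhe40* lie to the right of 0 (to the left when scaled on the neutrophil genes) and *Arntl* and *Nr1d2* to the left. The intervals of *Wee1*, *Nr1d2* and *Arntl* are the widest.

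Spread within a group differed strongly among the 10 genes. The coefficient of variation of *Per1* was 8.97% in Ctrl and 8.55% in LIP, below the median of all genes tested, 16.1% and 16.5%. *Bhlhe40* varied by 12.98% and 3.58%. By contrast, *Arntl* varied by 22.8% and 85.0%, *Nr1d2* by 58.7% and 52.7% and *Nr1d1* by 38.4% and 96.6%. Reads per library ranged from 127 to 1258 for *Arntl* and from 86 to 1129 for *Nr1d2*, and from 3710 to 7332 for *Per1*. *Dbp*, with 93 to 339 reads, varied by 24.7% and 20.9%, and the part of read number in the spread was not tested.

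Ratios of a pair of genes within a library do not depend on how libraries are scaled. The log2 ratio of *Per1* to *Arntl* FPKM was 2.23, 2.63 and 2.61 in Ctrl and 6.23, 3.998 and 6.07 in LIP. That of *Per2* to *Arntl* was -0.20, -0.20 and 0.07 in Ctrl and 3.30, 1.35 and 3.61 in LIP. Both ratios were higher in every LIP library, by means of 2.95 and 2.86. LIP replicate 2, the LIP library with most *Arntl*, was the lowest of its group on both. The ratio of *Dbp* to *Arntl* was -0.57, -0.52 and -0.74 in Ctrl and 1.09, -0.50 and 0.88 in LIP, so the lowest LIP library barely cleared the highest Ctrl library. For *Nr1d1* to *Arntl* and *Nr1d1* to *Nr1d2* the groups overlapped.

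**Figure D3:**
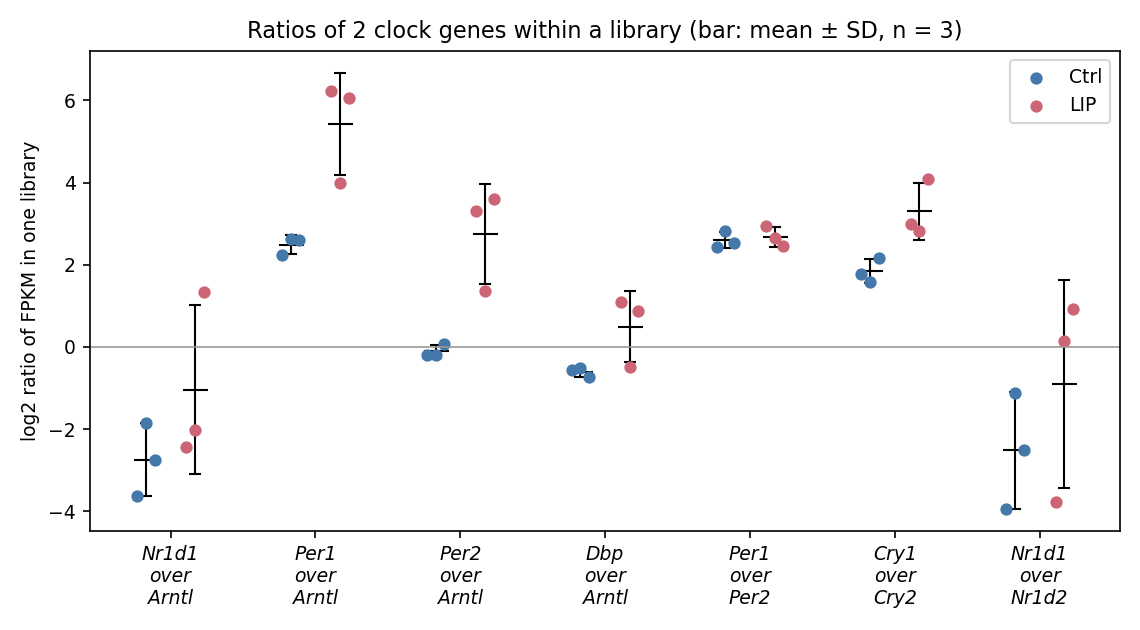
Log2 ratio of the FPKM values of a pair of clock genes in the same library (vertical axis) for the 3 Ctrl and 3 LIP libraries, with mean and SD. The ratios to *Arntl* of *Per1* and *Per2* separate the groups, and *Per1* over *Per2* stays near 2.60 in Ctrl and 2.68 in LIP.

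Signs of single fold changes did depend on scaling. TMM assumes that most genes do not change, and with it the genes tested had a median of -0.09 in log2 units. With library totals that median was -0.42, and of the 8 tested clock genes 1 (*Per1*) was then higher and 4 were lower (*Arntl*, *Nr1d2*, *Cry2* and *Dbp*). With the 20 mature neutrophil markers as the scale, the median was -1.92 and all 8 genes were lower. Relative to the median of all genes, *Per1* stood at 1.05 with TMM, 1.05 with library totals and 1.05 with the neutrophil markers, and *Arntl* at -1.59, -1.59 and -1.61. A change of scaling moves all genes by nearly the same amount. The order of the 8 genes was therefore bound to stay about the same, and what differed was the position of 0.

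**Figure D4:**
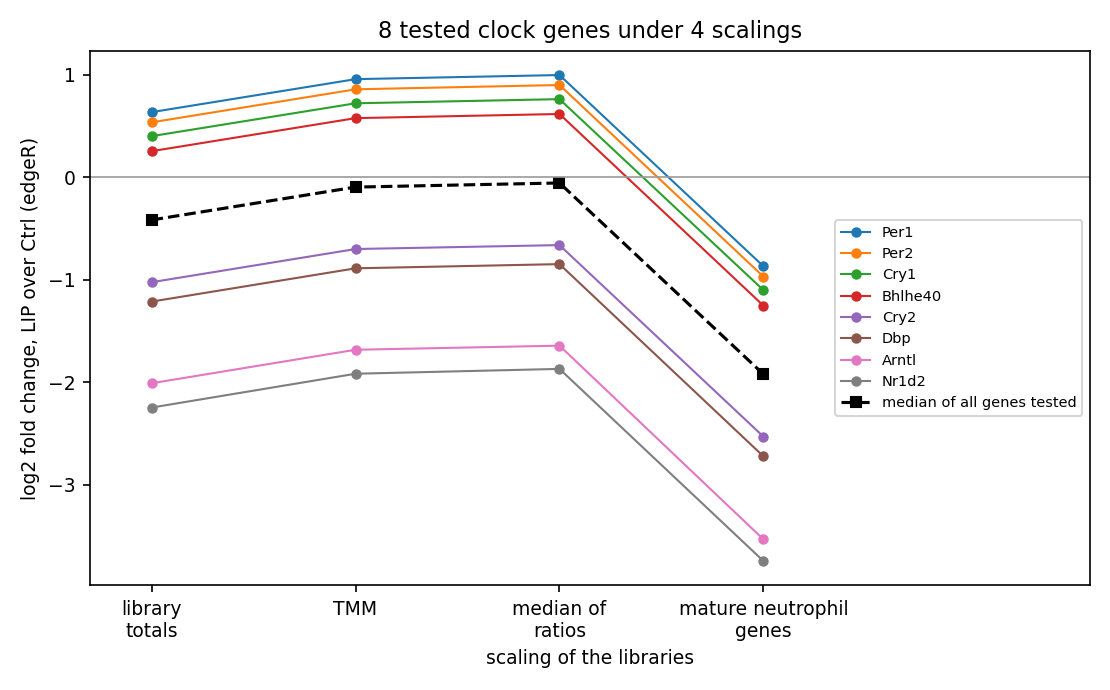
Log2 fold changes of LIP over Ctrl (vertical axis) of the 8 tested clock genes under 4 scalings of the libraries (horizontal axis), with the median of all genes tested as a dashed line. *Per1*, *Per2*, *Cry1* and *Bhlhe40* lie above the dashed line throughout and *Cry2*, *Dbp*, *Arntl* and *Nr1d2* below it, while the line itself falls to -1.92 with the neutrophil markers. A change of scaling moves all genes by nearly the same amount, so positions relative to the line hardly depend on it.

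The rest of the pathway was read from a list of 20 other clock genes, of which 19 were in the table and 8 were tested. Of these, 5 rose and none fell, where 26.5% of all genes tested rose and 27.2% fell, and with library totals 3 were higher and 1 lower. Among them were *Nfil3* and genes of kinases that act on clock proteins. *Csnk1e*, a casein kinase that phosphorylates PER, averaged 82.9 ± 1.04 CPM in Ctrl and 156 ± 8.83 in LIP (adjusted p = 5.09e-05), and its relative *Csnk1d* from 131 ± 11.1 to 167 ± 8.09 (adjusted p = 0.0216). The kinase gene *Gsk3b* rose from a mean of 107 ± 2.36 to 132 ± 11.8 CPM (adjusted p = 0.0408). In FPKM, which use library totals, *Gsk3b* averaged 11.2 in Ctrl and 11.2 in LIP, and *Csnk1d* 25.4 and 26.1. *Fbxw11*, a subunit of the ligase that targets PER, had a log2 fold change of 0.54 (adjusted p = 0.0541). The E-box-driven repressor gene *Ciart* averaged 9.60 and 5.58 CPM (log2 fold change -0.78, adjusted p = 0.0594) and the CLOCK inhibitor gene *Cipc* 9.99 and 7.80 (adjusted p = 0.381), neither of which passed. Without LIP replicate 2 or LIP replicate 3, 3 of the 8 genes were higher. Like the rises of *Per1*, *Per2*, *Cry1* and *Bhlhe40*, these did not hold with the neutrophil markers as the scale, where 7 of the 8 genes were lower and none higher.

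Genes that the clock drives, and which other signals also reach, were read from a list of 5 outputs. Of these 4 rose, beside 26.5% of all genes tested. The largest rise among them was that of *Usp2*, a deubiquitinase gene with E-box control, by 2.19 in log2 units (adjusted p = 2.93e-05), with 6.23 ± 1.32 CPM in Ctrl and 28.4 ± 2.37 in LIP. *Klf10*, *Cdkn1a* and *Nampt*, the last the rate-limiting enzyme of NAD salvage, had log2 fold changes of 0.87, 0.86 and 0.84. *Wee1* had 0.28 and did not pass (adjusted p = 0.682). With library totals 4 were again higher, and with the neutrophil genes as the scale 4 were lower and none higher.

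Both programmes that meet the clock in blood neutrophils were also read. All 6 genes listed for daily ageing rose (4 with library totals), beside 26.5% of all genes tested, among them with log2 fold changes of 2.07 for *Cxcr2*, 1.77 for its ligand gene *Cxcl2*, 1.74 for *Itgam*, 0.40 for *Icam1* and 0.39 for *Cxcr4*. *Itgam* shares 68.7% of its exonic bases with *Gm49368*, and its value is uncertain. In FPKM, which use library totals, *Icam1* averaged 13.9 in Ctrl and 14.8 in LIP, and *Cxcr4* 31.5 and 33.2. *Cxcr4* is known to be high in aged neutrophils. Glucocorticoids set clocks in peripheral tissues and induce *Per1*. Of 7 other genes they induce, 5 rose and 1 fell, beside 26.5% and 27.2% of all genes tested, and with library totals 3 were higher and 1 lower. *Fkbp5* averaged 89.4 ± 27.9 CPM in Ctrl and 366 ± 10.9 in LIP (adjusted p = 1.47e-05), *Dusp1*, *Errfi1*, *Zbtb16* and *Sgk1* had log2 fold changes of 1.59, 1.05, 0.98 and 0.74, and *Tsc22d3* (GILZ) fell by 0.44 on the log2 scale (adjusted p = 0.000860). *Klf9* had 0.13 and did not pass (adjusted p = 0.614). With the neutrophil genes as the scale, 5 of these 7 genes were lower and none higher, and of the 6 ageing genes 1 was higher and 3 lower.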

How the data were processed

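The authors deposited, for each of 6 libraries, unnormalized counts of reads for every gene. The FPKM deposited beside them are the authors' values per gene length and library total. The submitters' processing notes name GRCm38, cutadapt 1.9 and FastQC. Aligner, counting tool and use of strand are not given in the sources used here. Coordinates of the 10 clock genes equal those of GENCODE M21.

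Counts were tested with edgeR 4.0.16 (quasi-likelihood, TMM, R 4.3.3) in 1 fit over all genes whose FPKM averaged 1 or more, with Benjamini-Hochberg adjustment. A standard error is the size of the log2 change over the root of F. The fit was tested on simulated data. Alternatives used limma 3.58.1 on log2(FPKM + 1) or log2(FPKM + 0.1) and DESeq2 1.42.0. Chi-square per gene between libraries of 1 group was 39.1 to 77.0, and no library was a copy of another. Reads carry no molecular identifiers. The common biological coefficient of variation between pools was 0.265. Marker sums and ratios use FPKM as deposited.

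The clock genes and lists were chosen with earlier results of these data known. Genes named are the 10 clock genes, the listed genes that passed the FPKM filter, genes sharing exons with them and the most abundant marker of each cell type; genes under the filter are named after their values were seen. For 50 gene names on several rows, every row stayed in the fit, and a listed gene was read from the one with more FPKM on average. Some listed genes are counted but not reported here by name. Promoter windows are from RefSeq.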

Additional observations from a re-analysis of the deposited data

How the results depend on the processing

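With mature neutrophil markers as the scale, *Per1*, *Per2*, *Cry1* and *Bhlhe40* reversed, to log2 fold changes of -0.87, -0.97, -1.10 and -1.25, and 9330 genes passed, 59 higher and 9271 lower, where 5601 had passed with TMM; the scaling itself moves every gene down by about the same amount. A mean FPKM of at least 5 left 5328 genes, of which 3637 passed, among them 3 of the 3 clock genes tested and 3 of the 6 other clock genes tested. With library totals 1919 genes were higher and 4146 lower, against 2766 and 2835 with TMM, and with both this scaling and limma *Per2*, *Cry1* and *Bhlhe40* kept their direction but missed the threshold, while *Cry2* and *Dbp* passed. Without any filter *Arntl* missed it (adjusted p = 0.0905). Leaving out each library in turn gave 4674 to 5385 genes, 4 to 7 of the 10 clock genes and 3 to 6 of the other clock genes; without Ctrl replicate 1, 4 clock genes were higher and none lower. Replicate numbers are shared only by label: deviations of same-numbered libraries correlated by 0.02, 0.06 and 0.04. With the replicate block 5546 genes passed, with 7 of the clock genes, *Cry2* being the one gained (adjusted p = 0.0473), and 6 of the other clock genes. Median-of-ratios factors and DESeq2 gave the same 4 higher and 2 lower clock genes in number as TMM. The lowest read number in a library among the 10 clock genes was 10, for *Nr1d1* in LIP replicate 1.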

Other observations

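The deposited table carries its own annotation of the clock, which was looked up after the values had been seen. The KEGG pathway for circadian rhythm covers 28 genes in the table, 20 of them beyond the 10 clock genes, and 13 of these 20 were tested. There, 6 were higher in LIP and 1 lower, where 26.5% of all genes tested were higher and 27.2% lower. In either direction the share was near the 53.6% of all genes tested that passed. Besides *Csnk1d* and *Csnk1e*, the higher genes included 3 of the 5 tested subunits of AMP-activated protein kinase, which phosphorylates CRY. With 5 genes, picked after the values were seen, this count is not read as differing from the 26.5% of all genes. *Prkaa1* rose from 28.6 to 64.5 CPM (log2 fold change 1.17, adjusted p = 0.000780), *Prkab2* from 10.4 to 19.2 (adjusted p = 0.0140) and *Prkab1* from 44.1 to 66.2 (adjusted p = 0.00348). *Prkag1* and *Prkag2*, with log2 fold changes of 0.39 and 0.05, did not pass (adjusted p = 0.0836 and 0.883). *Skp1a*, a component of SCF ubiquitin ligases, fell from 78.5 to 59.3 CPM (adjusted p = 0.0275).

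The genes named here were chosen after their values were seen, and with libraries scaled on mature neutrophil genes the median of all genes is -1.92 in log2 units.

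Of its Gene Ontology terms, 3 on circadian rhythm were read, which share genes with one another. Of 34 tested genes of regulation of circadian rhythm beyond the 10 clock genes, 12 were higher and 5 lower, and of 40 of circadian rhythm 13 were higher and 14 lower. For circadian regulation of gene expression, of 33 tested genes beyond the 10 clock genes, 11 were higher, 10 lower and 12 did not pass, where 26.5% of all genes tested were higher and 27.2% lower. The 33 genes had a median of -0.14 in log2 units. *Id1* of this last term, an inhibitor of basic helix-loop-helix factors, rose most in it, from 15.1 to 69.9 CPM (log2 fold change 2.22, adjusted p = 1.30e-06), and its relative *Id2* rose from 322 to 499 (adjusted p = 0.000733), whereas *Id3* fell from 34.0 to 16.8 (adjusted p = 0.000941). *Noct*, the rhythmically expressed gene of nocturnin, rose from 13.5 to 27.9 CPM (adjusted p = 0.00118).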
